A study of Mus musculus with 16 samples.

Results

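The CC chemokines are small secreted proteins that attract leukocytes, and 10 of their genes with a known role in skin are described here in whole mouse dorsal skin with and without ultraviolet B (UVB) irradiation. The genes were chosen by symbol (*Ccl2*, *Ccl5*, *Ccl7*, *Ccl8*, *Ccl11*, *Ccl17*, *Ccl19*, *Ccl20*, *Ccl22* and *Ccl27a*), and each matched 1 of the 55359 gene rows of the deposited count tables. The skin came from 16 wild-type C57Bl/6 mice (C57Bl/6N in the study's text) aged 8 weeks, with hair follicles in telogen, when follicles rest. Of these, 4 males and 4 females were irradiated with UVB 3 times at intervals of 2 days with skin collected 6 h later than the final exposure, and 4 males and 4 females were not irradiated. Each mouse gave 1 poly(A)-selected RNA library, and because the tissue is whole skin, every value is an average over epidermis, dermis, vessels, hair follicles and resident or recruited leukocytes. The sources used here do not tie mice of the 4 groups to litters or cages.

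Chemokines bind G protein-coupled receptors on leukocytes and draw the cells along a gradient. CC chemokines are named for a pair of adjacent cysteines near the start of the mature protein. In skin, *Ccl2* and *Ccl7* are ligands of CCR2, the receptor that brings inflammatory monocytes out of the blood, and *Ccl8* and *Ccl11* attract T cells and eosinophils through CCR8 and CCR3. *Ccl5* binds CCR1 among other receptors and is made mostly by activated T cells and NK cells. *Ccl17* and *Ccl22* are the ligands of CCR4 on skin-homing T cells, *Ccl27a* is the keratinocyte chemokine that binds CCR10 on the same cells, *Ccl20* is the epithelial ligand of CCR6, and *Ccl19* binds CCR7 and guides dendritic cells and T cells toward lymphoid tissue.

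By the GRCm39 gene annotation, *Ccl2* (ENSMUSG00000035385.6, chr11:81926397-81928279), *Ccl7* (chr11:81936532-81938351), *Ccl11* (chr11:81948618-81953781) and *Ccl8* (chr11:82006007-82007625) lie in this order on the plus strand, with *Ccl12* between *Ccl11* and *Ccl8*. *Ccl5* (chr11:83416602-83425942) lies farther along the same chromosome, on the minus strand. *Ccl22* (chr8:95471226-95478327) and *Ccl17* (chr8:95534358-95538664) are near neighbours on the plus strand of chromosome 8. *Ccl20* (chr1:83094487-83096888) stands alone on chromosome 1. *Ccl27a* (chr4:41769467-41774639) and *Ccl19* (chr4:42754525-42756577) lie on the minus strand of a part of chromosome 4 that holds several near copies of both genes.

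The 4 members of the chromosome 11 cluster are shown by the coding bases around their adjacent cysteine codons, the feature that gives the family its name, with these 2 codons in capitals and 15 bases on each side (GRCm39 annotation, sense strand).

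Ccl2: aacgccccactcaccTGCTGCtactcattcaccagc

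Ccl7: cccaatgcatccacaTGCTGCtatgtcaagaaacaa

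Ccl8: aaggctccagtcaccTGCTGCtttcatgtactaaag

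Ccl11: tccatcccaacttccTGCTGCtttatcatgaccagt

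The pair of cysteines is encoded by codons 34 and 35 of *Ccl2*, 33 and 34 of *Ccl7*, and 32 and 33 of *Ccl8* and *Ccl11*. Aligned end to end, the coding sequences of *Ccl7* and *Ccl11* were identical at 66.3% of alignment columns, and those of *Ccl7* and *Ccl8* at 62.9%. *Ccl2*, whose coding sequence is longer (444 bases against 291 bases for the other 3 genes), was identical to *Ccl7* at 45.3%. No stretch of 100 bases, the read length of the sequencing kit, in the canonical transcripts of *Ccl2*, *Ccl5*, *Ccl7*, *Ccl8*, *Ccl11*, *Ccl17*, *Ccl20* and *Ccl22* was found in an annotated transcript of another gene. Of the 728 such stretches of *Ccl19*, 51.1% were also found in transcripts of other genes or elsewhere in the chromosome 4 region, and of the 814 stretches of *Ccl27a*, 63.5% were. The counts of *Ccl19* and *Ccl27a* are therefore less certain than those of the other 8 genes, since reads that fit several copies equally well are not counted for any gene.

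The 3 genes that were called higher after UVB in males, *Ccl2*, *Ccl7* and *Ccl20*, are shown by the 200 bases before their annotated starts. Capitals mark a match to the consensus of NF-kB, a transcription factor activated in inflammation, or to the AP-1 letters TGANTCA, where N is any base. Both were searched on both strands from 250 bases before to 50 bases after the start.

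Ccl2, chr11:81926197-81926396, plus strand: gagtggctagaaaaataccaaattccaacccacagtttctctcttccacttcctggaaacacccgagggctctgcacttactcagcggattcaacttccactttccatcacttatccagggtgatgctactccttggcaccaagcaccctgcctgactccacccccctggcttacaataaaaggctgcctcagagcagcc

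Ccl7, chr11:81936332-81936531, plus strand: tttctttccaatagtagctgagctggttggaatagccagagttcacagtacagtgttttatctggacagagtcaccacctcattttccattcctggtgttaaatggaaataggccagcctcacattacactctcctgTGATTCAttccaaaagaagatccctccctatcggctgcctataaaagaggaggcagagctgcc

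Ccl20, chr1:83094287-83094486, plus strand: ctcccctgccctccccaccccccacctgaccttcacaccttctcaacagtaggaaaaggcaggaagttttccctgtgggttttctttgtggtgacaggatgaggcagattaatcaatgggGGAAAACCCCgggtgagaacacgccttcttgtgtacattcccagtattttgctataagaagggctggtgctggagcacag

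*Ccl20* held 1 match to the NF-kB consensus, on the minus strand from -80 to -71 relative to the start, and *Ccl7* held the AP-1 letters from -63 to -57. The pattern TGANTCA is its own reverse complement, so a match counts on both strands. The window of *Ccl2* held neither. Among all 10 members, the NF-kB consensus was found in 2, *Ccl20* and *Ccl5*, and the AP-1 letters in 1. Of the 21770 windows of equal length at protein-coding genes, 8.97% held the NF-kB consensus and 7.14% the AP-1 letters. A match describes the letters only and is no evidence that a factor binds there.

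Between 16495776 and 33404831 reads per library fell on genes in the sense orientation, 70.08% to 79.22% of all reads. Sex-linked transcripts matched the labelled sex in all 16 mice. Levels are given as CPM, counts adjusted for library size and scaled by the trimmed mean of M values (TMM). The 5 fibroblast markers, which include the collagen genes *Col1a1* and *Col1a2*, summed to between 59308 and 65215 CPM in control males, 19050 and 27482 CPM in UVB males, 13797 and 14024 CPM in control females and 9082 and 13670 CPM in UVB females. These few abundant genes thus took a larger share of the reads in control males than in any other group, and their part in the differences between groups was not tested. Each gene was tested with edgeR over all genes. A gene was called at a Benjamini-Hochberg adjusted p below 0.1, the threshold the study set. Its second criterion, a log2 fold change past 1 in size, was applied by the study to values shrunken with apeglm and is applied here to the unshrunken edgeR values. All 10 genes passed the filter on low counts in each comparison.

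*Ccl8* was by far the most abundant of the 10 genes in every group. Per kb of annotated exon, it averaged 422 ± 118 CPM (SD, n = 16 mice). *Ccl11* followed at 31.7 ± 11.5 CPM per kb, and the lowest *Ccl8* value of any mouse (226) lay above the highest *Ccl11* value (64.8). *Ccl7* (14.2 ± 5.49), *Ccl27a* (11.02 ± 5.05), *Ccl2* (6.51 ± 2.08), *Ccl5* (5.53 ± 2.65) and *Ccl22* (5.35 ± 1.75) formed the middle of the order on the same per-kb scale. *Ccl19* (2.97 ± 1.40), *Ccl17* (2.28 ± 1.16) and *Ccl20* (1.33 ± 0.769) were lowest. From *Ccl11* down, each gene overlapped in range with the next over the 16 mice, so *Ccl8* alone was set apart from its neighbour. The per-kb level of *Ccl27a* uses all 2700 bases of its annotated exons and would be higher by its canonical transcript of 913 bases. The same holds for *Ccl5* (1027 against 535 bases), *Ccl20* (1421 against 802), *Ccl2* (1138 against 813) and, less so, *Ccl17*, *Ccl22* and *Ccl19*. The order below *Ccl8* thus depends on the length used. Within groups the order shifted. In males without UVB, *Ccl2* ranked below *Ccl5* and *Ccl22*, with ranges that just overlapped between *Ccl22* and *Ccl2*. In males after UVB, the lowest *Ccl2* value per kb (6.30) was above the highest *Ccl22* value (4.19) and the highest *Ccl5* value (3.30).

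**Figure D1:**
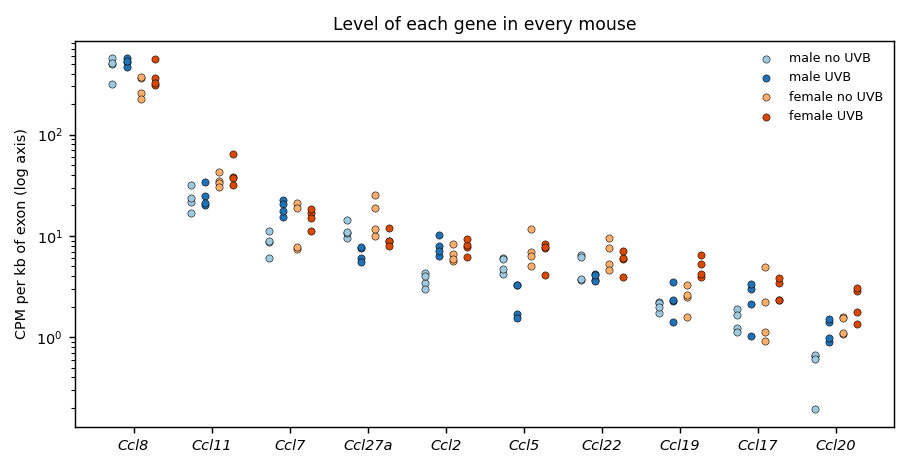
Level of each gene in CPM per kb of annotated exon (log axis), 1 point per mouse, coloured by group. *Ccl8* stands above every other gene in all 16 mice, and *Ccl5* in UVB males sits below the other groups.

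The first question was how the genes responded to 3 UVB exposures within each sex. In males, 3 of the 10 genes rose (*Ccl2*, *Ccl7* and *Ccl20*) and 2 fell (*Ccl5* and *Ccl27a*). Over all genes tested in males, 29% were called higher and 30.5% lower, so a count of 5 members called was no larger than the share of genes called overall. With the log2 fold change also past 1, the 3 genes that rose and *Ccl5* remained, against 4.08% of all genes higher and 3.31% lower. In females, 2 of the 10 rose (*Ccl19* and *Ccl20*) and 1 fell (*Ccl27a*), beside 12.8% of all genes called higher and 10.6% lower. With a log2 fold change past 1, *Ccl19* alone remained, against 1.63% of all genes higher and 1.08% lower. By the shrunken values of DESeq2 with apeglm, *Ccl2* (1.08) and *Ccl7* (1.12) were past 1 in males, while *Ccl20* (0.98) and *Ccl5* (-0.92) in males and *Ccl19* (0.86) in females were not. For the 10 members together, the fitted log2 changes had a median of 0.21 in males (-0.02 over all genes) and of 0.27 in females (0.0025 over all genes). In these whole-tissue samples, a change in the number of cells of a type and a change in RNA per cell cannot be told apart.

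**Figure D2:**
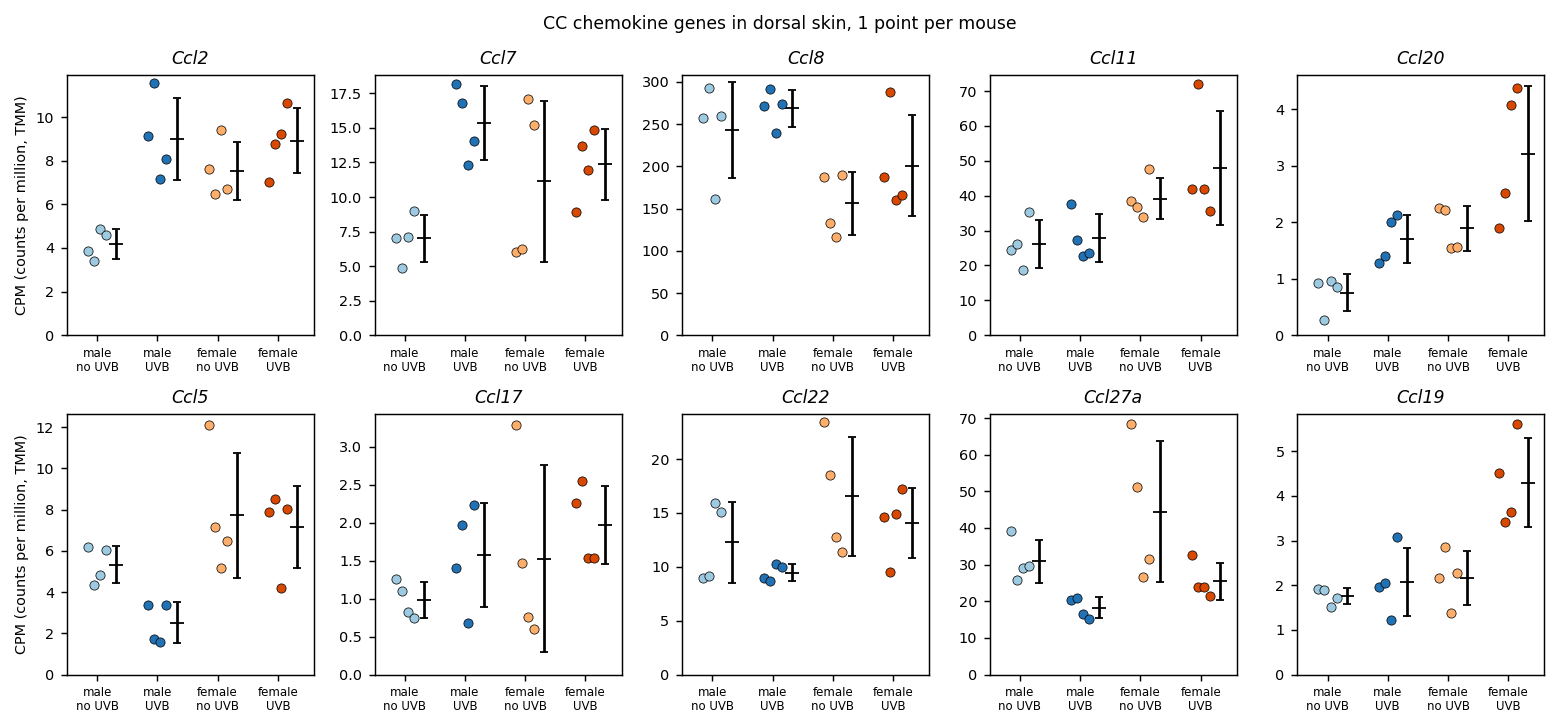
TMM-scaled CPM of each gene on a linear axis from 0, 1 point per mouse in replicate order, with the mean and SD of the 4 mice of each group at the right of its points. In males the UVB and no-UVB points do not overlap for *Ccl2*, *Ccl7*, *Ccl20*, *Ccl5* and *Ccl27a*, and in females they do not overlap for *Ccl19*. The share of all genes without such overlap was not counted, so the number of members here has no background to be set against.

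**Figure D3:**
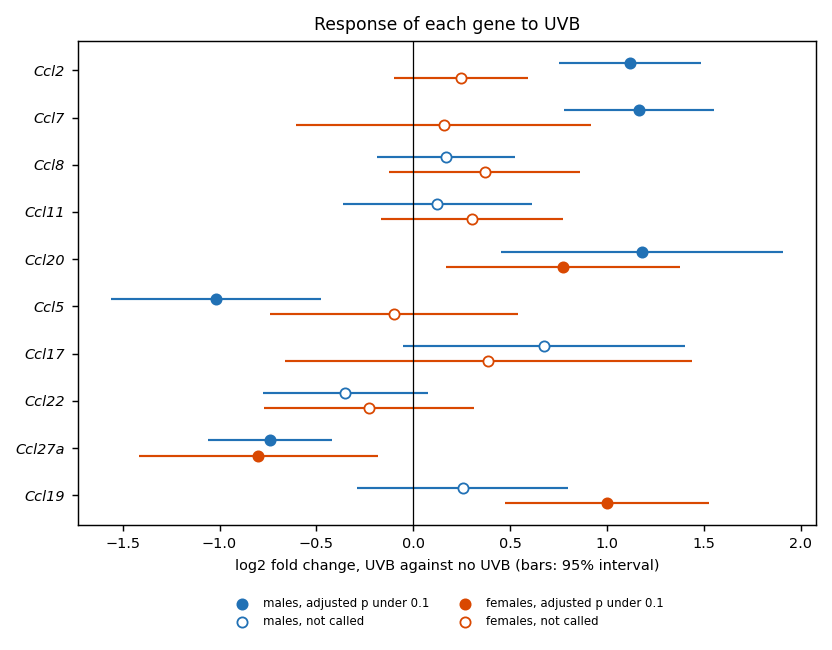
Fitted log2 fold change of each gene after UVB in males and in females, with 95% intervals. Filled points passed the adjusted p threshold. *Ccl2*, *Ccl7* and *Ccl5* are filled in males only, *Ccl19* in females only, and *Ccl20* and *Ccl27a* in both sexes.

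Of the members in the chromosome 11 cluster, the CCR2 ligands *Ccl2* and *Ccl7* rose in males. *Ccl2* stood at 3.86, 3.40, 4.89 and 4.58 CPM in the 4 males without UVB and at 9.11, 11.5, 7.17 and 8.07 CPM in the 4 UVB males. All 4 UVB males lay above all 4 controls. The fitted rise was 2.17-fold (95% interval 1.68 to 2.80, edgeR adjusted p = 0.000229). In females, *Ccl2* measured 7.61, 6.45, 9.39 and 6.71 CPM without UVB and 7.04, 8.75, 9.21 and 10.6 CPM after it. These groups overlapped, and the log2 fold change of 0.24 had an interval from -0.10 to 0.59. A rise as large as that of males was thus outside the interval of females.

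*Ccl7* followed *Ccl2* in males. Its 4 controls held 7.03, 4.88, 7.14 and 8.99 CPM and its UVB males 18.2, 16.8, 12.3 and 14.1 CPM, without overlap. The fitted change was 2.24-fold (95% interval 1.71 to 2.93, edgeR adjusted p = 0.000294). Females without UVB were split for *Ccl7*, with 6.06 and 6.25 CPM in replicates 1 and 2 and 17.1 and 15.2 CPM in replicates 3 and 4. UVB females held 8.95, 13.7, 11.99 and 14.9 CPM, between these pairs. The log2 fold change of 0.16 had a wide interval, from -0.60 to 0.92.

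*Ccl8*, the most abundant member, did not pass the test in either sex. Without UVB it measured 258, 292, 161 and 260 CPM in males, and after UVB 271, 292, 239 and 274 CPM. The male groups overlapped fully, with a log2 fold change of 0.17 (95% interval -0.19 to 0.52). Females held 187, 133, 116 and 189 CPM without UVB and 188, 288, 161 and 166 CPM after it, with a log2 fold change of 0.37 (95% interval -0.12 to 0.86). *Ccl11*, the eosinophil attractant eotaxin, likewise overlapped between treatments, between 18.8 and 35.2 CPM in control males and 22.6 to 37.7 CPM in UVB males. In females it ranged from 33.9 to 47.7 CPM without UVB and from 35.6 to 72.1 CPM after it. The log2 fold changes of *Ccl11* were 0.12 (95% interval -0.36 to 0.61) in males and 0.30 (95% interval -0.17 to 0.77) in females. The 5 eosinophil markers summed to between 3.68 and 4.66 CPM in control males, 2.93 and 5.05 CPM in UVB males, 5.25 and 8.47 CPM in control females and 5.45 and 9.69 CPM in UVB females. Of these, *Siglecf* and *Il5ra* had counts in every library and *Epx*, which encodes eosinophil peroxidase, had 0 in all.

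*Ccl12*, a further CCR2 ligand of the mouse that lies in the same cluster and is no member of the 10, held 3.54, 3.54, 2.12 and 2.46 CPM in control males and 9.36, 8.61, 7.33 and 4.90 CPM in UVB males. Its log2 fold change of 1.40 (SE 0.228, edgeR adjusted p = 0.000471) was of the size seen for *Ccl2* and *Ccl7*. In females the log2 fold change of *Ccl12* was 0.30 (SE 0.339). The genes that rose were not the nearest neighbours of each other throughout. *Ccl11*, 10.3 kb beyond *Ccl7*, and *Ccl8*, 11.5 kb beyond *Ccl12*, were not called.

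**Figure D4:**
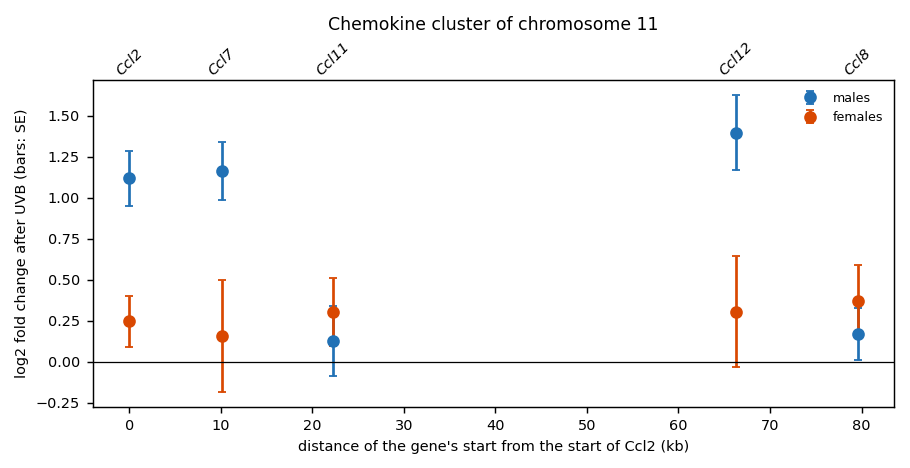
Fitted log2 fold change after UVB (bars: SE) of the 5 genes of the chromosome 11 cluster in males and females, placed by the distance of each gene's start from that of *Ccl2*. In males *Ccl2*, *Ccl7* and *Ccl12* sit above 1 while *Ccl11* and *Ccl8* sit near 0.

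The summed level of 12 monocyte and macrophage markers was between 1849 and 2459 CPM in control males and between 1542 and 2048 CPM in UVB males. Of the 12, 2 were called higher in males, *Ly6c2* and *Fcgr1*, and 4 lower, *Adgre1*, *Csf1r*, *C1qa* and *C1qb*. *Ly6c2*, which marks inflammatory monocytes, had a log2 fold change of 0.59 (edgeR adjusted p = 0.0171), while *Adgre1*, the gene of the macrophage antigen F4/80, fell by 0.44. The 8 neutrophil markers summed to between 10.1 and 15.7 CPM in control males and to between 54.1 and 161 CPM in UVB males, with the neutrophil gene *Ly6g* at no more than 3 counts in any library. Most of the sum in UVB males came from *S100a8* (a mean of 26.7 CPM, against 2.09 CPM without UVB) and *S100a9* (39.8 against 1.72 CPM). In control males *Csf3r* was the largest of the 8, at a mean of 6.04 CPM. *Cxcr2*, *Csf3r* and *Mmp8* were also called higher in males, and *Retnlg* was at 2.26 CPM without UVB and 1.48 CPM after it. In females the 8 markers summed to between 10.4 and 16.3 CPM and between 19.6 and 30.0 CPM. What part these cells had in the rise of *Ccl2* and *Ccl7* was not tested.

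*Ccl20*, the ligand of CCR6 on Langerhans cell precursors and IL-17-producing T cells, was the member that rose in both sexes. Control males held 0.931, 0.276, 0.952 and 0.859 CPM, which rest on 6 to 22 counts, and UVB males 1.28, 1.40, 2.005 and 2.14 CPM. The groups did not overlap, and the fitted rise was 2.27-fold (95% interval 1.37 to 3.75, edgeR adjusted p = 0.0112). Females held 2.25, 2.22, 1.54 and 1.56 CPM without UVB and 1.90, 2.52, 4.07 and 4.37 CPM after it. The lowest UVB female lay within the control range, and the rise of 1.71-fold (95% interval 1.12 to 2.60, edgeR adjusted p = 0.0828) lost its call in 5 of 8 fits without 1 of the females. These were the fits without UVB female replicates 3 or 4 and without control female replicates 2, 3 or 4, and the highest adjusted p was 0.206, without UVB female replicate 4.

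*Ccl27a* fell in both sexes. The 4 control males held 39.2, 25.7, 29.2 and 29.5 CPM and the 4 UVB males 20.3, 21.0, 16.5 and 15.1 CPM. All UVB males lay below all control males, at 0.599-fold (95% interval 0.480 to 0.749, edgeR adjusted p = 0.0017). Control females ranged widely, with 68.5 and 51.2 CPM in replicates 1 and 2 against 26.7 and 31.4 CPM in replicates 3 and 4. UVB females held 32.6, 23.8, 23.8 and 21.4 CPM, with a fold of 0.574 (95% interval 0.375 to 0.880, edgeR adjusted p = 0.0797). The female groups overlapped, and the call was lost in the 5 fits without UVB female replicates 2, 3 or 4 or control female replicates 1 or 2, with a highest adjusted p of 0.188. The fall in *Ccl27a*, which keratinocytes make, stood beside higher sums of the 6 measured keratinocyte markers, of which 4 were called higher in males (*Krt1*, *Krt10*, *Krt14* and *Dsp*) and 3 in females (*Krt1*, *Krt10* and *Krt14*). The sum went from a range of 9705 to 15043 CPM to one of 23443 to 32788 CPM in males, and from 8468 to 12861 CPM to 13659 to 17332 CPM in females, and the part of these cells in the fall was not tested. The near copies *Ccl27al* and *Ccl27b* had 0 to 4 counts per library, and the *Il11ra1* gene overlaps *Ccl27a* on the opposite strand.

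Among the other T cell attractants, *Ccl5* fell in males. It measured 6.19, 4.32, 4.80 and 6.02 CPM in control males and 3.39, 1.72, 1.58 and 3.39 CPM in UVB males. No UVB male reached the lowest control, and the fold was 0.494 (95% interval 0.339 to 0.718, edgeR adjusted p = 0.00512). Females held 12.1, 7.17, 5.17 and 6.46 CPM without UVB and 7.87, 8.50, 4.20 and 8.04 CPM after it. These groups overlapped, and the log2 fold change was -0.10 (95% interval -0.74 to 0.54). Neither *Ccl17* nor *Ccl22*, the CCR4 ligands that dendritic cells make, passed the reported test in either sex. *Ccl17* was low throughout, with 1.26, 1.10, 0.822 and 0.745 CPM in control males and 1.40, 1.98, 0.686 and 2.24 CPM in UVB males, for a log2 fold change of 0.67 (95% interval -0.05 to 1.40). In females *Ccl17* ranged from 0.606 to 3.29 CPM without UVB and from 1.53 to 2.56 CPM after it. *Ccl22* held 8.94, 9.11, 15.9 and 15.1 CPM in control males and a narrow 8.67 to 10.2 CPM in UVB males, with a log2 fold change of -0.35 (95% interval -0.78 to 0.08). Without UVB male replicate 3, *Ccl17* was called in males (0.92 on the log2 scale, edgeR adjusted p = 0.0181), as it was without control male replicate 1 and, with all mice, when every gene was kept (adjusted p = 0.0875). *Ccl22* was called lower in males without control male replicates 1 or 2 (edgeR adjusted p = 0.048 and 0.0597) and, with all mice, under upper quartile scaling (0.087). Female *Ccl22* values ranged from 11.4 to 23.4 CPM without UVB and from 9.55 to 17.2 CPM after it.

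A single control female, replicate 1, held the highest value of all 16 mice for *Ccl5*, *Ccl17*, *Ccl22* and *Ccl27a*. The same mouse had the highest summed level of the 10 T cell markers, at 178 CPM, followed by control female replicate 2 at 140 CPM, while replicates 3 and 4 stood at 91.3 and 88.9 CPM. Without that mouse, *Ccl17* in females passed the test with a log2 fold change of 1.07 (edgeR adjusted p = 0.0611) and the log2 fold change of *Ccl5* in females turned from -0.10 to 0.20. In males the T cell markers summed to between 70.2 and 94.7 CPM without UVB and to between 45.2 and 64.3 CPM after it. Of the 10 markers, 8 were called lower in males and 1 higher, and 3 were called lower in females. *Trac*, the constant part of the T cell receptor alpha chain, fell in males by 1.13 in log2 units (edgeR adjusted p = 0.000471). The 10 dendritic and Langerhans cell markers summed to between 1814 and 2314 CPM in control males and to between 1165 and 1535 CPM in UVB males, with 8 called lower. The part of these cells in the fall of *Ccl5* and *Ccl27a* was not tested.

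*Ccl19*, the CCR7 ligand, rose in females. The control females held 2.16, 2.85, 1.37 and 2.27 CPM and the UVB females 4.52, 3.42, 3.64 and 5.62 CPM. All 4 UVB females lay above all 4 controls, and the fitted rise was 2.001-fold (95% interval 1.39 to 2.88, edgeR adjusted p = 0.0186). In males the groups overlapped, with 1.91, 1.89, 1.51 and 1.72 CPM without UVB and 1.96, 2.04, 1.21 and 3.07 CPM after it, and the log2 fold change was 0.25 (95% interval -0.29 to 0.80). The annotated pseudogene *Ccl19-ps6*, which shares sequence with *Ccl19*, was counted at a like level. It averaged 1.70 CPM in control males and 2.97 CPM in UVB males, and 2.06 and 4.06 CPM in the corresponding females.

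Of 14 further ligand genes, 7 passed the filter in males and 8 in females. In males 1 rose, *Ccl12*, and 1 fell, *Ccl24* (eotaxin-2), by 0.70 in log2 units (edgeR adjusted p = 0.00394). In females 0 passed the edgeR test, with 1 at an unadjusted p under 0.05, while DESeq2 called 1, *Ccl21a*, higher. The median log2 fold change of the list was -0.18 in males and 0.04 in females. *Ccl21b*, *Ccl21d* and *Ccl27b* had no counts.

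Of the 13 receptors and scavengers of CC chemokines tested in males, 3 rose and 7 fell, with a median log2 fold change of -0.33. *Ccr1* (log2 fold change 0.99, edgeR adjusted p = 0.00196) and *Ccr2* (0.18) were among those that rose, and the smallest fall was that of *Ackr1* (-0.32), a decoy receptor on venules and red cells. *Ccr1* is a receptor of *Ccl5*, and *Ccr2* is the receptor of *Ccl2* and *Ccl7*. *Ccr4*, the receptor of *Ccl17* and *Ccl22*, fell from 7.82, 6.90, 6.23 and 5.04 CPM in control males to 2.21, 2.10, 2.48 and 2.76 CPM in UVB males, by 1.43 in log2 units (edgeR adjusted p = 3.65e-05). It fell in females as well, by 0.84 (edgeR adjusted p = 0.0147). *Ccr9* fell by 1.12 in males and by 0.74 in females. No other receptor of the 14 tested in females was called, and the median there was -0.19. *Ccr10*, the receptor of *Ccl27a*, did not pass the filter in males and is named here after its values were seen. It held 1.49, 1.33, 1.30 and 0.344 CPM in control males and 0.249, 0.128, 0.317 and 0.260 CPM in UVB males, the latter from 2 to 8 counts.

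Of the 15 tested inducers of chemokines and genes of the NF-kB feedback, 7 rose and 3 fell in males, with a median of 0.23. The cytokine genes *Il1b*, *Il1a*, *Tnf* and *Tslp* rose in males with log2 fold changes of 1.61, 0.98, 0.84 and 0.71 (edgeR adjusted p = 0.000127, 0.00369, 0.0291 and 0.0312). The NF-kB inhibitors *Tnfaip3* and *Nfkbia*, themselves targets of NF-kB, fell by 1.19 and 1.11 (edgeR adjusted p = 0.0404 and 0.0235). Control males were split for both genes. *Tnfaip3* was at 68.3 and 74.4 CPM in replicates 1 and 2, at 25.9 and 25.8 CPM in replicates 3 and 4, and between 17.8 and 23.7 CPM in UVB males. *Nfkbia* was at 250.3 and 259.9 CPM in the first pair, at 111 and 113 CPM in the second, and between 71.9 and 91.4 CPM in UVB males. In females *Il1b* alone of 18 genes was called, with a rise of 1.03 (edgeR adjusted p = 0.0142), and the median was -0.03.

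The second question was whether the response differed between the sexes, tested as an interaction in all 16 mice. *Ccl2* alone of the 10 was called, with a male response larger by 0.86 on the log2 scale (95% interval 0.36 to 1.37, edgeR adjusted p = 0.0611). Over all genes, 2.75% were called with a higher and 4.25% with a lower response in males. In fits without 1 mouse the call was lost without replicates 1 or 2 of the UVB males or of the control males, UVB female replicate 1 or control female replicate 3, at an adjusted p of at most 0.140. *Ccl7* had an interaction of similar size, 0.99 (95% interval 0.07 to 1.91), that did not pass after adjustment (edgeR adjusted p = 0.207). *Ccl5* stood at -0.93 (95% interval -1.83 to -0.04, edgeR adjusted p = 0.221) and *Ccl19* at -0.76 (95% interval -1.52 to 0.01). A sex difference in the responses of *Ccl5*, *Ccl7* and *Ccl19*, each called in 1 sex only, was therefore not shown by the reported test with all mice. Without control female replicate 1, the interaction of *Ccl5* was called at -1.24 (edgeR adjusted p = 0.0919). With all mice and the replicate number as a block, it was called at -1.02 (edgeR adjusted p = 0.0687). For *Ccl27a*, which fell in both sexes, the difference was 0.05 (95% interval -0.71 to 0.80), and for *Ccl20* it was 0.40 (95% interval -0.57 to 1.36). Among the receptors, *Ackr2*, a decoy receptor that clears inflammatory CC chemokines including *Ccl2*, had a response lower in males by 0.50 (edgeR adjusted p = 0.0923), with a fall of 0.66 in males and a log2 fold change of -0.17 in females.

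The third question was how the sexes differed at each state. Without UVB, *Ccl2* and *Ccl20* were lower in males and *Ccl8* was higher. Over all genes, 7.21% were higher and 4.58% lower in males. *Ccl2* in control males was 0.553 of its level in control females (95% interval 0.429 to 0.713, edgeR adjusted p = 0.00612), and the highest control male, at 4.89 CPM, lay below the lowest control female, at 6.45 CPM. *Ccl20* was at 0.400 of its female level (95% interval 0.243 to 0.659, edgeR adjusted p = 0.026), again without overlap. *Ccl8* was 1.55-fold higher in males (95% interval 1.14 to 2.12, edgeR adjusted p = 0.0831), but control male replicate 3, at 161 CPM, lay within the female range. That call was lost in 7 of the 16 fits without 1 mouse: those without control male replicates 1, 2 or 4, control female replicates 2 or 3, UVB male replicate 1 or UVB female replicate 1, at an adjusted p of up to 0.219. The *Ccl8* call was also lost with all mice under upper quartile scaling (edgeR adjusted p = 0.10) and with every gene kept (0.236). *Ccl11*, at a log2 difference of -0.59 without UVB (edgeR adjusted p = 0.145), did not pass with all mice, but was called lower in males by DESeq2 (adjusted p = 0.069) and by edgeR without UVB female replicate 2 or control male replicate 4 (0.0706 and 0.086). *Ccl7* and *Ccl27a* were each called lower in males without 1 mouse only, control female replicate 1 for *Ccl7* (edgeR adjusted p = 0.0977) and control female replicate 3 for *Ccl27a* (0.0714).

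After UVB, 4 members were lower in males and 0 higher by edgeR (5 and 0 by DESeq2, which added *Ccl22*), with 0 higher also at an unadjusted p under 0.05, while over all genes 12.8% were higher and 12.5% lower. *Ccl5* in UVB males was 0.362 of its level in UVB females (95% interval 0.230 to 0.570, edgeR adjusted p = 0.00598), and no male reached the lowest female. *Ccl19* was at 0.483 (95% interval 0.335 to 0.696, edgeR adjusted p = 0.0102), also without overlap. *Ccl20* (0.526-fold) and *Ccl11* (0.582-fold) overlapped between the sexes and were called at edgeR adjusted p = 0.0427 and 0.0315, but *Ccl20* was not called without UVB male replicates 1 or 2 or UVB female replicate 4 (adjusted p up to 0.133), and *Ccl11* was not called without UVB female replicate 2 (0.107). Without that same mouse *Ccl8* was called higher in males, with a log2 difference of 0.65 (edgeR adjusted p = 0.04) against 0.42 with all mice (0.181), and *Ccl22* was called lower (-0.72, 0.0688), as it was without control female replicate 1 (-0.57, 0.0878). *Ccl2* no longer differed by the test, with a log2 difference of 0.01 and an interval from -0.34 to 0.35. *Ccl27a* did not overlap between the sexes after UVB, with males at 15.1 to 21.0 CPM and females at 21.4 to 32.6 CPM, but was not called (log2 difference -0.48, edgeR adjusted p = 0.213). The summed T cell markers were also lower in UVB males, from 45.2 to 64.3 CPM against 75.8 to 105 CPM in UVB females, and their part in the difference of *Ccl5* was not tested. Of the 14 receptors and scavengers, 1 was higher and 4 were lower in males without UVB, and 0 were higher and 7 lower after UVB, with 0 higher also at an unadjusted p under 0.05 and by DESeq2.

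**Figure D5:**
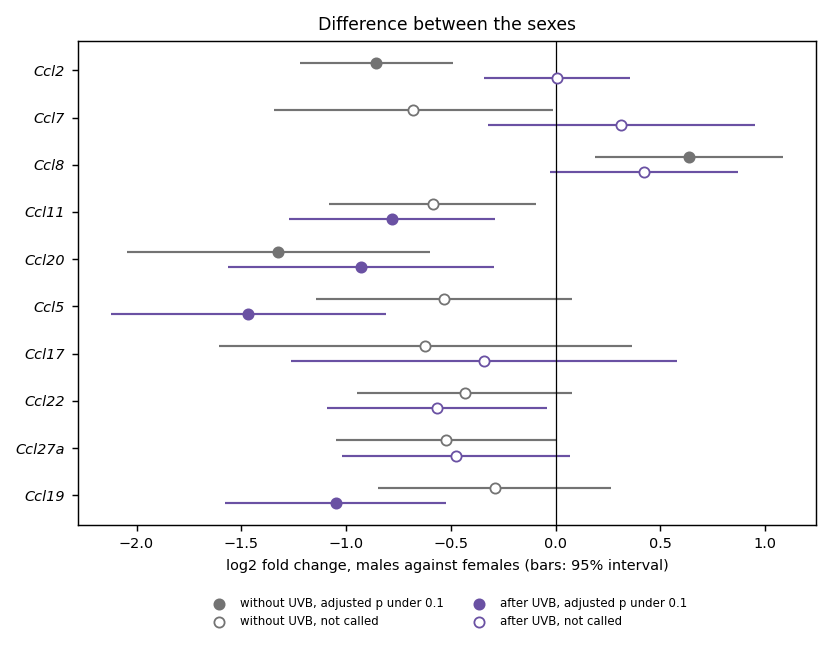
Fitted log2 difference between males and females for each gene, without UVB and after UVB, with 95% intervals. Values below 0 are lower in males. *Ccl2* is filled without UVB and lies at 0 after it, while *Ccl5* and *Ccl19* are filled after UVB only.

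As a description over 16 mice, with both genes of a pair read from the same library, the deviations from the group means correlated at r = 0.75 between *Ccl8* and *Ccl11*, at 0.70 between *Ccl17* and *Ccl27a*, at -0.65 between *Ccl7* and *Ccl27a*, at 0.63 between *Ccl5* and *Ccl17*, and at 0.59 between *Ccl2* and *Ccl7*, the 5 pairs with the largest r in size. Among the 15111 genes with a mean of at least 1 CPM, the deviations most like those of *Ccl27a* were those of *Ltb* (r = 0.94), the gene of lymphotoxin beta, and *Trbc2* (r = 0.89), a T cell receptor constant gene. *Ccl5* was most like *Coro1a* (r = 0.93), an actin regulator of leukocytes, and *Carmil2* (r = 0.91). For *Ccl8* the nearest were the lysosomal genes *Ctsh* (r = 0.92) and *Gm2a* (r = 0.92), and for *Ccl19* the antigen presentation genes *H2-DMa* (r = 0.87) and *Cd74* (r = 0.85). *Ccl17* was nearest to *Gpr55* (r = 0.94) and *Ubash3a* (r = 0.91), and *Ccl22* to *Vat1* and *Wnk4* (both r = 0.94). *Ccl2* was nearest to *Nsl1* (r = 0.88) and *Siah1b* (r = 0.86), and *Ccl7* to *Il17ra* (r = 0.89) and *Lrrc8d* (r = 0.88). *Ccl11* was nearest to *Mtmr2* (r = 0.89) and *Slirp* (r = 0.84), and *Ccl20* to *Pygo2* (r = 0.88) and *Traf2* (r = 0.86). For every member, the nearest genes were picked from these 15111 by the same rule. A high r is therefore partly due to the picking, and a shared role of the genes of a pair was not tested.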

How the data were processed

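Per the study's methods, poly(A) RNA of whole dorsal skin was made into stranded libraries (NEBNext Ultra II directional kit) and aligned with STAR, and the submitters' processing notes name the GRCm39 build. The annotation release and the version of STAR were not given in the sources used here, while the study's reporting summary does give its DESeq2 version. The deposited count tables, which the authors made per sample, hold whole-number counts per Ensembl gene without regard to strand and for each strand. The counts of the sense strand of this kit were used, since 3.63% to 4.23% of gene reads fell on the other. Reads that map to several places are not counted, which lowers genes with near copies. Gene IDs were matched to GENCODE M39, where 54749 of 55359 had a symbol.

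Counts were tested with edgeR 4.0.16 (filterByExpr, TMM scaling, robust quasi-likelihood F test) in R 4.3.3, with UVB responses fitted per sex (8 mice), and with the interaction and the sex differences fitted over all 16 mice. P-values were Benjamini-Hochberg adjusted over all genes tested, and intervals are at the 95% level. The alternatives were other scalings (DESeq2 size factors, upper quartile), every gene with at least 1 count, counts without regard to strand, a replicate block, 1 fit of all mice, stricter thresholds and each mouse left out. The study used DESeq2 with apeglm shrinkage, here an alternative (DESeq2 1.42.0, apeglm 1.24.0). Log2 CPM for correlations used a prior count of 2. Sequences came from the GRCm39 genome and the GENCODE M39 transcripts, and the fits were tested on simulated data. Total counts of 16495776 to 33404831 per sample set the counting precision, which is lowest for *Ccl17* and *Ccl20* (6 to 95 counts per library). All 10 members are reported. Of the lists of other ligands, receptors and inducers, genes called in a UVB response or the interaction are named when at most 8 were called, and otherwise the 4 largest and 2 smallest fold changes with a mean of at least 1 CPM. Cell type markers were described by their counts and sums, and those named were chosen after their values were seen. The values of 1 gene that this rule names are not reported here. P-values set the difference between groups against the spread between mice of a group, which is estimated with information shared across genes. The members and lists were chosen with earlier results of these data known. No 2 libraries of a group agreed within sampling noise.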

Additional observations from a re-analysis of the deposited data

Results flagged for a closer look

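The gap between the lowest sample and the next was large for the size of the group in 2 of the 40 sets of 4 mice, which is the share that chance gives (about 1 in 20). *Ccl5* in UVB female replicate 3 was at 4.20 CPM, below the other UVB females, at 7.87 to 8.50 CPM, and the summed T cell markers of this mouse (75.8 CPM) were the lowest of the UVB females. *Ccl20* in control male replicate 2 was at 0.276 CPM, from 6 counts, below the other control males, at 0.859 to 0.952 CPM. The response of *Ccl2* to UVB differed between the sexes by 0.86 on the log2 scale in the interaction test (edgeR adjusted p = 0.0611), with all 4 UVB males above all 4 control males and overlapping groups in females. None of these was traced to a cause.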

How the results depend on the processing

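In males, the calls of *Ccl2*, *Ccl7*, *Ccl20*, *Ccl5* and *Ccl27a* held under each scaling, test, filter, strand and threshold setting tried and without any 1 mouse, except that 1 gene rather than 2 fell when a log2 fold change past 1 was asked for. In females, the number of genes higher went from 2 to 1 with the replicate block, at an adjusted p of 0.05 and past a log2 fold change of 1, and was 1 to 3 without 1 mouse. The number lower went from 1 to 0 with every gene kept, at an adjusted p of 0.05 and past a log2 fold change of 1, and was 0 to 1 without 1 mouse. The interaction count of 1 became 0 at an adjusted p of 0.05 and ranged from 0 to 2 without 1 mouse. The replicate numbers of the labels did not pair mice: same-numbered deviations correlated from -0.115 to 0.217, not every mouse was closest to its own number, and as a replicate block they gave 2 interaction calls (*Ccl5* added, -1.02). It also ended the call of *Ccl20* in females (adjusted p = 0.176) and made *Ccl22* in males and the sex differences of *Ccl8* and *Ccl27a* after UVB pass (adjusted p = 0.0866, 0.073 and 0.0687). Directions turned only for results that were not called. The interaction of *Ccl27a* was -0.013 with the replicate block, and the sex difference of *Ccl2* after UVB was -0.035 with upper quartile scaling, -0.0056 with every gene kept and -0.0072 without regard to strand. Without 1 mouse, log2 values crossed 0 for *Ccl11* in males (-0.065 to 0.29), *Ccl5* (-0.26 to 0.20) and *Ccl7* (-0.047 to 0.45) in females, the interactions of *Ccl8* (-0.37 to 0.014), *Ccl11* (-0.39 to 0.074), *Ccl17* (-0.40 to 0.54), *Ccl22* (-0.35 to 0.021) and *Ccl27a* (-0.24 to 0.25), and the sex differences of *Ccl17* without UVB (-0.88 to 0.058) and *Ccl2* after UVB (-0.13 to 0.098). Of the member values without 1 mouse, 27 lost and 13 gained a call, and of those under other settings 4 lost and 8 gained one. Over all genes, scaling moved the split of calls: upper quartile scaling gave 1737 higher and 2157 lower in females (2162 and 1787 as reported), 3880 higher and 6130 lower in males (4802 and 5051), and 1659 higher and 2736 lower in males than females after UVB (2222 and 2169), and DESeq2 size factors gave 687 and 641 interaction calls (478 and 740). DESeq2's own test gave 1054 and 903 interaction calls and every gene kept gave 229 and 495. The cause of these shifts was not tested. Depth limits *Ccl17* and *Ccl20* most.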
